A study of Saccharina japonica with 9 samples.

Results

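The methylomes of male gametophytes (MG) and sporophytes (SP) of the kelp *Saccharina japonica* were compared over 6 of the 9 whole-genome bisulfite sequencing (WGBS) libraries of the study, chosen by their stage labels. The libraries MG1 to MG3 are from whole haploid male gametophytes of strain Ye-c12 at an age of 2 months, and SP1 to SP3 are from whole diploid sporophytes of the same strain at an age of 4 months. The gametophytes were taken from a sporophyte blade and multiplied as clones, and the sporophytes came from crosses of female gametophytes (FG) with MG, so the stages differ in ploidy, age and culture, and these cannot be told apart. The remaining 3 libraries, from FG of 2 months, are used here only as a reference level for scaffolds, and it is not stated whether the libraries of a stage came from separate cultures, so that the p-values below measure only the spread between these libraries.

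Kelps alternate between a microscopic haploid gametophyte and a large diploid sporophyte. In brown algae the sex is decided in the haploid stage, a gametophyte with a V chromosome being male and one with a U chromosome being female, and the diploid sporophyte carries both. A methylated cytosine (mC) is classified by the bases that follow it: CpG and CHG sites are symmetrical, so that each has a partner cytosine on the opposite strand, whereas CHH sites (H being A, C or T) have none. In land plants the enzyme MET1 keeps CpG methylation through replication by copying it to the new strand, chromomethylases do so for CHG sites, and CHH methylation has to be set anew. In WGBS unmethylated cytosines are read as thymine, and reads that still show cytosine are counted as methylated.

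Each listed mC has a coverage of at least 5 reads and at least 1 methylated read, and it passed a test of the authors against a background rate. Listed sites had a corrected p of the authors below 0.05, and the raw p of sites with 1 methylated read reached up to 0.0495. Unmethylated cytosines that were read as cytosine can pass such a cut. Their share of the lists was not tested, so numbers of mCs are numbers of listed sites. SP1 stood apart from the other libraries in this listing. The background rate recovered from the deposited p-values was 0.0175% for CHH sites in SP1, against 0.0656% to 0.0704% in the other 5 libraries, and 0.0746% for CpG sites, against 0.262% to 0.302%. A CpG site with 1 methylated read was therefore listed up to a coverage of 67 reads in SP1, up to 14 to 16 reads in MG and up to 17 or 18 reads in SP2 and SP3. For CHH sites these limits were 288 reads in SP1 and 72 to 77 reads elsewhere. Results are given with and without SP1 for this reason, and sites within a coverage window listed in all 6 libraries (5 to 14 reads for CpG, 5 to 71 for CHG and 5 to 72 for CHH) were compared separately.

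MG held more nuclear mCs than SP in all 3 sequence contexts, and the excess was larger at CHG and CHH sites than at CpG sites, by little against SP1 and by much against SP2 and SP3. The number of CpG mCs was 1180103, 1217380 and 1251028 in MG1 to MG3. The SP libraries held 459873, 404666 and 472540. The CpG numbers of the 3 SP libraries were alike, SP1 included, and all of them lay below the lowest MG library. The MG mean was 2.73 times the SP mean, 2.64 times SP1, 3.01 times SP2 and 2.57 times SP3.

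The number of CHG mCs was 997985, 1040883 and 1254295 in MG, and 333833, 83410 and 94296 in SP. The MG mean was 6.44 times the SP mean, but 3.29 times SP1, 13.2 times SP2 and 11.6 times SP3. CHH mCs showed the same order with wider gaps. They numbered 2865905, 3005529 and 3749700 in MG, and 908354, 196666 and 224362 in SP, so that the MG mean was 7.24 times the SP mean, 3.53 times SP1, 16.3 times SP2 and 14.3 times SP3. SP1 thus lay between MG and the other SP libraries at both non-CpG contexts, and it was not apart from SP2 and SP3 at CpG sites. No MG library overlapped an SP library in any context, and the exact two-sided permutation test gave p = 0.1 in each, the smallest value that 3 libraries against 3 allow; without SP1 the smallest possible value is 0.2, and that was obtained.

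Scaling to the mapped reads of each library, counted as read pairs, did not close the gap. CpG mCs per 1000000 mapped reads were 37129, 36612 and 34149 in MG, and 11294, 11056 and 12768 in SP. CHH mCs per 1000000 mapped reads were 90168, 90391 and 102354 in MG, and 22307, 5373 and 6062 in SP. The libraries of the stages remained apart on this scale too. Within the common coverage window the MG mean was 2.84 times the SP mean for CpG, 6.47 times for CHG and 7.28 times for CHH, and 2.79, 12.3 and 15.2 times the mean of SP2 and SP3.

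**Figure D1:**
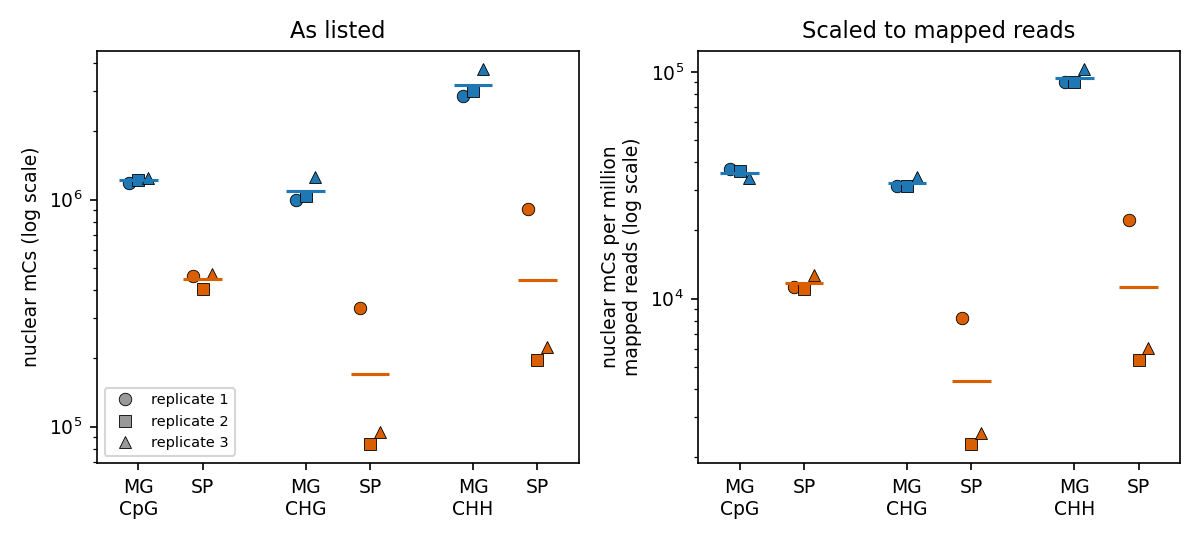
Nuclear mCs per library in each context (log axes), as listed (left) and per 1000000 mapped reads (right); points are libraries, with a symbol for each replicate number, and lines are stage means of 3 libraries. The MG libraries lie above the SP libraries in every context; the 3 SP libraries lie together for CpG, whereas SP1 lies above SP2 and SP3 for CHG and CHH.

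The composition of the mC lists differed accordingly. CpG sites made up 23.4%, 23.1% and 20% of the mCs in MG1 to MG3, against 27.0% in SP1, 59.1% in SP2 and 59.7% in SP3. CHH sites made up 56.8%, 57.1% and 59.9% in MG, against 53.4%, 28.7% and 28.4% in SP. The stages did not overlap in either share (exact permutation test, p = 0.1; 0.1 after Benjamini-Hochberg adjustment over 3 contexts), but the distance of SP1 from MG was a small part of that of SP2 and SP3. The CHG share was 19.8%, 19.8% and 20.1% in MG and 19.6%, 12.2% and 11.9% in SP, and here SP1 fell short of the lowest MG library by less than the range of the MG libraries. The counting error is small beside these distances, the 95% Wilson interval of a context share being at most 0.116 percentage points to either side; such intervals cover counting error only, since reads from PCR are not independent molecules.

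The coverage of the mCs overlapped between the stages with SP1 and not without it. The median coverage of an mC was 8, 8 and 9 reads in MG and 9, 7 and 7 reads in SP (exact permutation test, p = 0.6), and the mean coverage was 9.98, 10.2 and 12.2 reads in MG and 12.9, 8.57 and 8.92 reads in SP. The share of mCs at 5 to 8 reads was 60.6%, 58.9% and 40.9% in MG and 42.5%, 69.6% and 65.4% in SP (exact permutation test, p = 0.5). MG3 and SP1 had the lowest shares at this coverage and the largest at 13 to 20 reads, 20.4% and 15.7%, and the stages overlapped in every coverage class. Without SP1 every MG library had a higher median and mean coverage than SP2 and SP3 and a lower share at 5 to 8 reads, by 14.1 percentage points on average (exact permutation test, p = 0.2 in each, the smallest possible).

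Within classes of coverage, the order of the contexts was kept. At 5 to 8 reads the MG mean was 3.58 times SP1, 2.45 times SP2 and 2.23 times SP3 for CpG, and 4.23, 12.3 and 11.6 times for CHH. At 13 to 20 reads it was 1.48, 4.69 and 3.47 times for CpG, and 3.25, 38.7 and 27.2 times for CHH. The lowest MG library remained above the highest SP library in all 5 coverage classes for CHG and CHH and in the 3 classes up to 20 reads for CpG. The exceptions were CpG sites at 21 to 50 reads, which numbered 4110, 4065 and 7848 in MG against 20365 in SP1, 753 in SP2 and 1000 in SP3, and CpG sites over 50 reads, where SP1 with 4433 lay within the MG range of 4269 to 5479. Both exceptions came from SP1. At coverages of 21 to 67 reads a CpG site with 1 methylated read was listed in no library but SP1, and above 67 reads in none.

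The CpG share was lower and the CHH share higher in every MG library than in every SP library in each class, whereas the CHG share did not keep its order. At 5 to 8 reads the CpG share was 24.6%, 24.3% and 23.9% in MG and 27.2%, 60.4% and 61.2% in SP. At 9 to 12 reads the same share was 24.8%, 24.2% and 23.6% in MG and 27.3%, 60.0% and 61.2% in SP. The fall of the CpG share to between 2.32% and 2.89% in MG at 21 to 50 reads, and to 6.64% and 7.17% in SP2 and SP3, accompanied the listing limit of CpG sites with 1 read, while SP1, without that limit, kept 27.6%. The CHG share at 21 to 50 reads was 25.8%, 25.9% and 25.3% in MG, below 29.3% in SP2 and 28.3% in SP3 and above 20.3% in SP1, and the stages overlapped in it in every class but 13 to 20 reads.

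**Figure D2:**
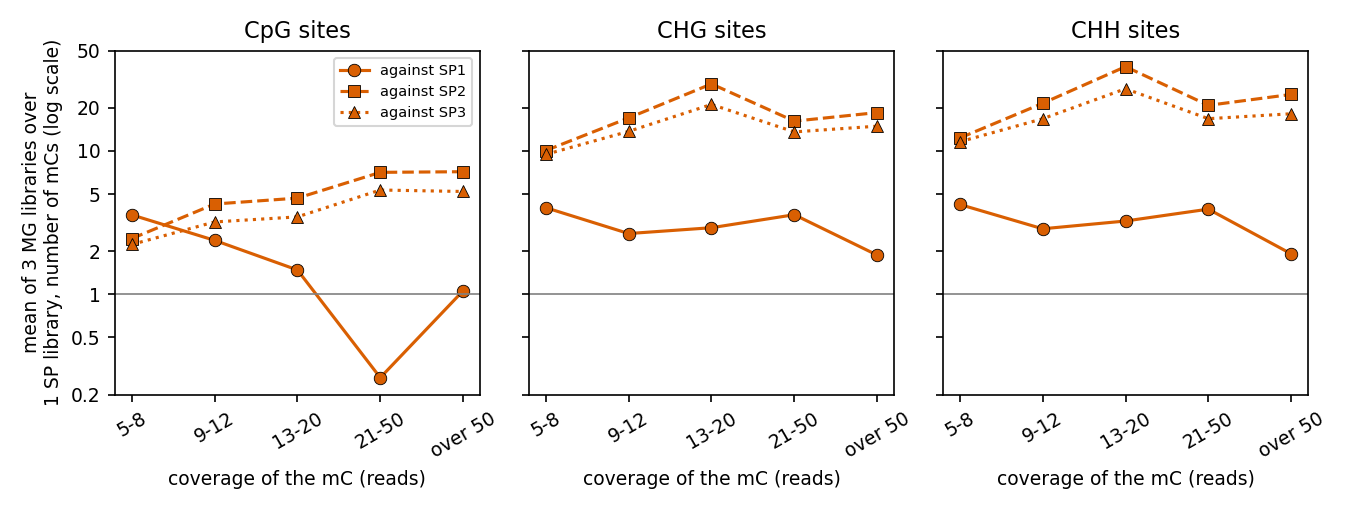
Mean number of mCs of the 3 MG libraries divided by that of each SP library, by the coverage of the site and in each context (log axis; the grey line marks a ratio of 1). Against SP2 and SP3 the ratio lies between 9.47 and 38.7 for CHG and CHH and between 2.23 and 7.17 for CpG; against SP1 it lies between 1.88 and 4.23 for CHG and CHH and falls to 0.262 for CpG at 21 to 50 reads.

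Nearly all mCs rested on a single methylated read in both stages, and MG had more sites with 2 or 3. The share of mCs with exactly 1 methylated read was 96.9%, 97.0% and 96.2% in MG and 98.7%, 98.7% and 98.6% in SP. The share with 2 was 2.82%, 2.74% and 3.44% in MG against 0.790%, 1.24% and 1.34% in SP. The share with 3 was 0.159%, 0.152% and 0.2% in MG against 0.0383%, 0.0482% and 0.0550% in SP. In each of these shares the stages did not overlap (exact permutation test, p = 0.1; adjusted over 5 measures, p = 0.167). The difference was also present at like coverage, since at 9 to 12 reads the share with 1 read was 97.1%, 97.2% and 97.2% in MG and 99.1%, 98.7% and 98.7% in SP. At 21 to 50 reads the stages overlapped in that share.

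Sites with a high methylation level (MLmc, the methylated reads over all reads of the site) were few, and their distribution over libraries did not follow the stages. An MLmc of 0.5 or more was found at 1734, 1674 and 4930 sites in MG1 to MG3 and at 7717, 26 and 22 sites in SP1 to SP3. The exact permutation test over all 6 libraries gave p = 1 for their share of the mCs. In SP1 7648 of them had an MLmc of 0.8 or more, against 3 in SP2 and 1 in SP3.

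These sites were concentrated on a small set of scaffolds. There were 66 scaffolds with at least 10 such sites in any of the 6 libraries, none with a listed position beyond 30328, and they held 75.7%, 80.0% and 95.4% of the sites of MG1 to MG3 and 99.3% of those of SP1. The leading scaffolds were 9758 in MG1 with 254 sites, 11485 in MG2 with 308, 2915 in MG3 with 1369 and 5821 in SP1 with 486. Of the highly methylated sites of MG1, 47.1% were found again at that level in MG2, 64.1% in SP1 and 1.10% in MG3, so that MG3 drew on other positions than MG1 and MG2. The 66 scaffolds held 0.0617%, 0.0594% and 0.106% of all mCs in MG and 0.503%, 0.0240% and 0.0226% in SP. Whether they belong to the kelp nucleus or to other DNA in the samples was not tested.

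The 66 scaffolds were chosen on the MLmc of these libraries, and leaving them out removes most such sites of SP1 by construction, so the numbers without them are given as a description. Sites with an MLmc of 0.5 or more then numbered 422, 335 and 225 in MG and 51, 24 and 19 in SP. Sites with 4 or more methylated reads, of which there were 5303, 5252 and 10037 in MG and 8030, 167 and 209 in SP over all scaffolds, numbered 2970, 2825 and 4114 in MG and 197, 94 and 125 in SP without them.

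The symmetrical contexts allow each site to be compared with its partner on the opposite strand. The partner of a CpG mC was itself listed for 2.48%, 2.55% and 2.50% of the CpG mCs in MG and for 1.21%, 0.926% and 1.09% in SP. For CHG mCs this share was 2.56%, 2.63% and 3.03% in MG and 1.06%, 0.235% and 0.227% in SP. Both shares were higher in every MG library (exact permutation test, p = 0.1), with SP1 among its stage at CpG and above SP2 and SP3 at CHG. In most CpG pairs of either stage only 1 of the 2 cytosines was thus listed. The partner's coverage is not known unless it is listed, and a list that holds more sites also holds more pairs; the part of list length in these shares was not tested. Among sites with at least 2 methylated reads SP1 turned the order, with 10.95% of its CpG mCs paired against 1.35%, 1.25% and 1.69% in MG and 0.203% and 0.24% in SP2 and SP3.

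Neighbouring mCs were counted within 10 bases on the same and on the opposite strand. In MG there were 0.278, 0.288 and 0.313 same-strand neighbours per mC, and in SP 0.162, 0.0413 and 0.0432. The ratio of same- to opposite-strand neighbours was 1.85, 1.85 and 1.87 in MG. It was 2.42 in SP1, 1.39 in SP2 and 1.27 in SP3, so that the SP libraries lay on both sides of MG (exact permutation test, p = 0.7). At CHH sites the split was wider. The CHH ratio was 2.22, 2.26 and 2.21 in MG and 3.02 in SP1, whereas in SP2 and SP3, with 0.958 and 0.891, CHH mCs had no excess of neighbours on their own strand (exact permutation test over all 6 libraries, p = 0.4).

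**Figure D3:**
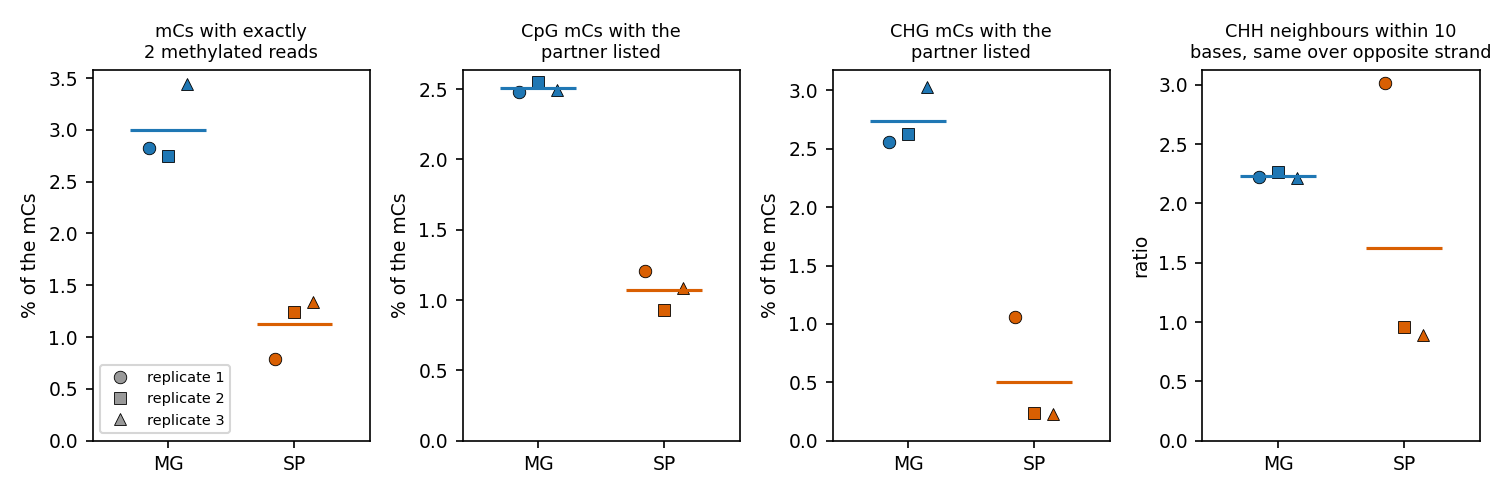
Share of mCs with exactly 2 methylated reads, share of CpG and of CHG mCs whose partner cytosine is listed, and ratio of same- to opposite-strand CHH neighbours within 10 bases, per library; points are libraries and lines are stage means of 3 libraries. The 3 MG libraries lie above the SP libraries in the first 3 panels; in the last panel SP1, at 3.02, lies above MG while SP2 and SP3 lie below 1.

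Single positions recurred rarely. Of the 15879553 nuclear positions listed in MG, 4.05% were listed in 2 of the 3 libraries and 20028, or 0.126%, in all 3. Of the 3149303 positions listed in SP, 0.894% were listed in 2 libraries and 268, or 0.00851%, in all 3. MG positions thus recurred more often, but the MG lists were also longer, and a site that is not listed in another library may lack coverage there. Of the 20028 MG positions listed in all 3 libraries, 9.83% were also listed in at least 1 SP library, against 1.96% of those listed in a single MG library. Among positions with at least 4 methylated reads, 1083 of 16085 (6.73%) were found in all 3 MG libraries and 8 of 8327 in all 3 SP libraries. Most of these SP positions were from SP1, which listed 8030, against 167 in SP2 and 209 in SP3. At most 167 could therefore recur in all 3 SP libraries, and the 2 counts do not compare recurrence between the stages. SP2 and SP3 shared 45 such positions, 26.9% of those of SP2 and 21.5% of those of SP3. Between 2 MG libraries this share was 15.9% to 45.3%.

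Over scaffolds, the assembled pieces of the genome by which the files give positions, the excess of MG was general. Methylated reads were summed per scaffold. The 6778 scaffolds on which the 6 libraries together held 30 methylated reads or more were tested by the quasi-likelihood method of edgeR, the library sizes being the mapped reads. At a Benjamini-Hochberg adjusted p below 0.05, 6680 scaffolds (98.6%) were higher and 39 (0.575%) lower in MG, and on 97.2% of the scaffolds the libraries of the stages did not overlap. The median log2 fold change was 2.59, with quartiles of 2.38 and 2.85. It was 1.61 for CpG sites alone and 3.08 for CHH sites alone. Without SP1 the median was 3.05 over all contexts, 1.58 for CpG and 4.07 for CHH.

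Nearly all methylated reads of SP on the 39 scaffolds that were lower in MG were from SP1. These scaffolds held 53600 methylated reads in SP1, 22 in SP2 and 38 in SP3, against 4216, 2241 and 30 in MG1 to MG3, and SP1 was the highest of the 6 libraries on each of them. Of the 39, 36 belong to the 66 scaffolds with highly methylated sites. Without SP1 no scaffold was called lower by edgeR, and none had an unadjusted p below 0.05, but 29 of the 39 then fell below the 30 reads needed for the test, so that this says nothing about them. The other 10 had fitted values above 0 without SP1. DESeq2 with all 6 libraries called 1. Scaffold 3194 was the 1 scaffold lower in MG per mapped read with no overlap, and SP2 and SP3 held reads on it as well as SP1. Its listed positions reached 20987, and it held 16, 8 and 11 methylated reads in SP1 to SP3 and 0 in every MG and FG library. Counting MG as 3 reads over the group, its level per mapped read was at least 10.4-fold lower in MG. Whether it was covered in the gametophytes cannot be read from the lists.

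The scaffolds were next compared relative to the nuclear total of each library, which asks where the methylated reads of a stage lie rather than how many there are. On this scale 458 of 6778 scaffolds (6.76%) were higher and 357 (5.27%) lower in MG by edgeR (adjusted p below 0.05), and the libraries did not overlap on 33% of the scaffolds. The median log2 fold change was 0.76 over the higher and -0.67 over the lower scaffolds, beside 0.02 over all scaffolds tested. Without SP1, 537 were higher and 590 lower, and these included 402 of the 458 and 309 of the 357. Leaving out MG1, MG2 or MG3 left 248, 261 and 333 higher and 193, 201 and 235 lower. Most scaffolds were thus not called, and these held 74.4% of the methylated reads of MG and 75.7% of those of SP. With at least 2 methylated reads per site, edgeR called 0 of 3589 scaffolds higher and 14 lower, with 503 and 38 at an unadjusted p below 0.05 and a median shift of 0.59 on the log2 scale.

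The 458 higher scaffolds held 17.1%, 17.2% and 16.8% of the methylated reads in MG1 to MG3 and 11.8%, 11.99% and 11.9% in SP1 to SP3. In the FG libraries, which took no part in the choice, they held 11.9%, 11.7% and 12.2%. The 357 lower scaffolds held 8.48%, 8.26% and 8.55% in MG, 12.3%, 12.5% and 12.3% in SP, and 12.3%, 12.5% and 11.2% in FG. In both groups of scaffolds the level of the female gametophytes was thus close to that of the sporophytes. The mean FG level was below the mean MG level on 444 of the 458 higher scaffolds and on 7 of the 357 lower ones, beside 3320 of all 6778; since the scaffolds were chosen with the MG values, these counts are a description.

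The coverage of the sites moved with these groups. As a measure of it, the mean coverage of CHH mCs with 1 methylated read on a scaffold was divided by that of the whole library. Its median over the higher scaffolds was 1.01, 1.02 and 1.06 in MG1 to MG3, above 0.806, 0.865 and 0.890 in SP1 to SP3. Over the lower scaffolds this median was 0.848, 0.844 and 0.846 in MG and 0.856, 0.899 and 0.892 in SP, and over all scaffolds 0.894, 0.886 and 0.924 in MG and 0.826, 0.886 and 0.880 in SP. The mean of MG was above that of SP on 76.96% of the higher, 24.5% of the lower and 64.2% of all scaffolds with such sites. The part of coverage in the relative differences was not tested.

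**Figure D4:**
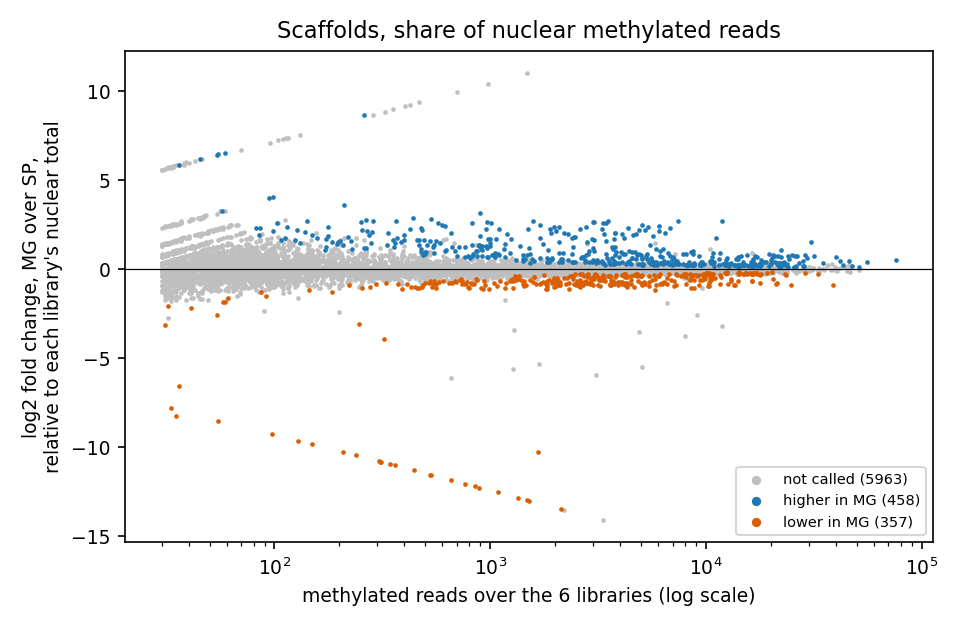
Fitted log2 fold change of MG over SP in the share of nuclear methylated reads against the number of methylated reads over the 6 libraries (log axis), with 1 point per scaffold and colours for the calls of edgeR. Of 6778 scaffolds, 458 are higher and 357 lower; the outer rows of points at either edge are scaffolds with reads in 1 stage and almost none in the other, whose fitted values are not measured folds.

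A group of scaffolds showed a strong excess in MG. There were 75 called scaffolds with a fitted relative difference above 4-fold. All MG libraries lay above all SP libraries on each of them, as on all 458 called higher and on 1229 of the 6778 tested. They held 0.821%, 0.814% and 0.782% of the methylated reads in MG and 0.184%, 0.140% and 0.138% in SP. In FG they held 0.0665%, 0.0585% and 0.0564%. The mean FG level was below the mean MG level on 74 of the 75, beside 3320 of all 6778. Since the scaffolds were chosen with the MG values, this count is a description. Without SP1, 68 of the 75 were still called higher. The relative coverage of their sites had a median of 0.896, 0.876 and 0.942 in MG and of 0.671, 0.733 and 0.829 in SP.

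The longest named scaffold of this kind was scaffold 378, with listed positions up to 343152. It held 661, 683 and 656 methylated reads per 1000000 nuclear methylated reads (ppm) in MG1 to MG3, against 124, 95.03 and 88.4 in SP1 to SP3 and 32.8, 30.1 and 21.8 in FG1 to FG3. The stages did not overlap, and FG lay below SP. The relative log2 fold change was 2.69 ± 0.12 (SE; edgeR, adjusted p = 2.8e-06), and it was 3.02 for CpG and 2.57 for CHH sites alone. Without SP1 the log2 fold change was 2.86. Along the scaffold MG lay above SP without overlap in 34 of 35 bins of 10 kb, and 20 of the 35 held no methylated read in any FG library. The scaffold was chosen on the same reads, and the share of such bins over the genome was not computed. Counts of bins here and below are a description.

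Scaffold 788, with listed positions up to 209060, was alike. It held 424, 400 and 429 ppm in MG, against 87.3, 54.7 and 44.8 in SP and 16.3, 19.2 and 17.3 in FG (log2 fold change 2.70 ± 0.20, SE; edgeR, adjusted p = 2.82e-05). Without SP1 the log2 fold change was 3.08. All of its 21 bins of 10 kb had MG above SP, and 11 were without methylated reads in FG. On scaffolds 1441 and 1744 the same held for all of 12 and 9 bins. Scaffold 1441 held 201, 213 and 181 ppm in MG, 40.3, 15.8 and 29.9 in SP and 5.36, 4.51 and 3.12 in FG, and scaffold 1744 held 168, 175 and 166 in MG, 26.3, 34.6 and 19.9 in SP and 4.29, 3.66 and 2.65 in FG. The order MG, SP, FG was thus the same on all 4, with no overlap between any 2 stages.

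Among the shorter scaffolds of this kind, 2770, 3844, 2418 and 3413 held at most 4 methylated reads in any FG library. Scaffold 2770 had the largest fold change of the named scaffolds higher in MG, 3.16 ± 0.39 (log2, SE; edgeR, adjusted p = 0.000606), from 274, 308 and 293 methylated reads in MG, 17, 1 and 2 in SP and 0, 0 and 4 in FG. SP1 held most of the SP reads here, and without it the log2 fold change was 4.65. Scaffold 3844 held 130, 141 and 159 reads in MG, 7, 3 and 1 in SP and 0 in all FG libraries. Scaffold 2418 held 485, 455 and 590 reads in MG, 27, 10 and 8 in SP and 2, 1 and 2 in FG. The remaining named scaffolds of this group, 4082, 3413 and 2898, had relative log2 fold changes of 2.82, 2.69 and 2.69. On scaffold 4082 there were 7, 3 and 4 reads in FG beside 8, 3 and 3 in SP, and on scaffold 2898 there were 18, 10 and 12 in FG beside 12, 7 and 8 in SP. Relative to the totals of the libraries, FG lay below SP on both, at 1.87 to 3.86 ppm against 6.71 to 10.1 on scaffold 2898.

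The same 10 scaffolds were higher in MG by log2 fold changes of 5.18 to 5.63 per mapped read, above the median of 2.59 over all scaffolds. With the mCs of the 3 libraries of a stage pooled, CpG sites made up between 18.3% and 27.3% of their mCs in MG. In SP they made up between 28.6% and 54.5%, and the share rested on 10 to 355 mCs. On scaffold 378 CpG sites made up 25.2% of the mCs in MG and 35.5% in SP, and on scaffold 788 23.2% and 40.6%, beside medians of 22.0% and 42.1% over all scaffolds tested. Of the 10 scaffolds, 2 lay below the median of all scaffolds in MG and 8 in SP. SP1, whose CpG share over all its mCs was lower than that of SP2 and SP3, held 221 of the pooled SP mCs on scaffold 378, against 66 and 68. The pooled shares without SP1 were not computed. The sites were covered in MG like those of other scaffolds, with relative coverages of 0.852, 0.848 and 0.868 on scaffold 378. The few sites found in SP and FG on that scaffold had 1.15 to 1.98 and 2.27 to 2.42. Of the 10, only scaffold 378 had every SP value above MG. On scaffolds 2770, 3844, 3413, 2898 and 1744 every SP library with a value lay below MG. On scaffold 1744 SP had 0.709, 0.628 and 0.625, against at least 0.854 in MG. On scaffolds 4082, 2418, 788 and 1441 the SP values lay on both sides of MG. Where SP or FG held few sites, the lists do not tell a scaffold with little methylation from one with few reads. Whether these scaffolds belong to the V chromosome was not tested, since no sequence or placement of the scaffolds was used here.

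The named scaffolds lower in MG relative to the total differed by less and showed no such gap. Scaffold 836, with listed positions up to 199445, held 247, 227 and 242 ppm in MG, 457, 615 and 521 in SP and 452, 433 and 412 in FG (log2 fold change -1.15 ± 0.10, SE; edgeR, adjusted p = 9.03e-05). Every FG library lay below every SP library and above every MG library. SP was above MG without overlap in 18 of its 20 bins of 10 kb. Without SP1 the relative log2 fold change was -1.25. Per mapped read this scaffold was still higher in MG, by 1.49 on the log2 scale. Its sites had relative coverages of 0.726 to 0.740 in MG, 0.790 to 0.860 in SP and 0.848 to 0.854 in FG, lower in MG than in either of the other stages.

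Scaffold 1867 held 91.0, 93.1 and 103 ppm in MG, 189, 202 and 230 in SP and 179, 172 and 167 in FG. Scaffold 2163 held 73.8, 71.9 and 79.4 in MG, 157, 174 and 153 in SP and 150, 148 and 125 in FG. On both, as on scaffold 2160 with 83.9, 73.5 and 71.8 in MG and 146, 167 and 174 in SP, the FG libraries lay within or below the SP range and all above MG. Scaffolds 3817, 2612, 2711, 3312 and 3539 had relative log2 fold changes between -1.12 and -1.07 with SE between 0.16 and 0.24. All of these scaffolds were higher in MG per mapped read, by log2 fold changes of 1.39 to 1.61.

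Scaffold 5226 was the exception. It held 7, 33 and 29 methylated reads in MG, 215, 14 and 24 in SP and 0 in FG, and its relative log2 fold change of -3.93 ± 0.68 (SE; edgeR, adjusted p = 0.00523) rested in part on SP1. Without SP1 it was -2.66, with an adjusted p of 0.00595. Its listed positions ended at 7206, it belongs to the 66 scaffolds with highly methylated sites, with 16 such sites in SP1, and SP2 and SP3, at 20.2 and 29.9 ppm, were above the highest MG library at 6.05.

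**Figure D5:**
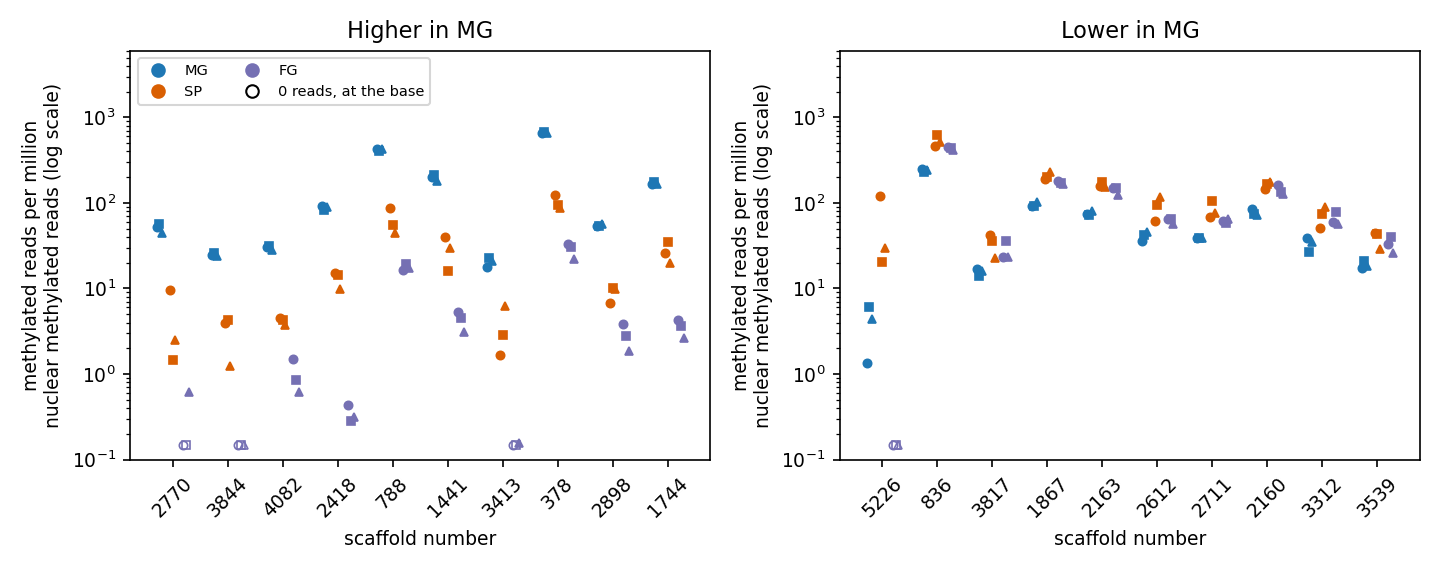
Methylated reads per 1000000 nuclear methylated reads (log axis) on the 10 scaffolds with the largest relative difference in each direction, for the 3 libraries each of MG, SP and FG, with a symbol for each replicate number; open symbols at the base are libraries with 0 reads. On the scaffolds higher in MG the FG libraries lie lowest. On those lower in MG, other than 5226, the FG libraries lie above all MG libraries and within or below the SP range.

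Of the 10 scaffolds with the most methylated reads, 5 were called higher in MG in relative terms with all 6 libraries, beside 6.76% of all scaffolds, and none lower. MG held most of the reads by which these 10 were chosen. In the fit of scaffolds with at least 300 reads, 485 of 3874 were called higher. Scaffolds with more reads can be called at smaller differences, so the share over all scaffolds is not a like comparison for these 10. Scaffold 11, the first of them, held 4060, 4097 and 3624 ppm in MG, 2612, 2907 and 2774 in SP and 2431, 2536 and 2343 in FG, a log2 fold change of 0.51 ± 0.05 (SE; edgeR, adjusted p = 0.000171). MG lay above SP without overlap in 72 of its 111 bins of 10 kb, and SP above MG in none. On scaffold 2 MG lay above in 13 and SP in 9 of 146 bins. The relative coverage of the sites of scaffold 11 was 1.09, 1.11 and 1.16 in MG and 0.851, 0.884 and 0.879 in SP. Scaffolds 31 and 49 resembled it, with log2 fold changes of 0.47 and 0.39, above the upper quartile of 0.29 over all scaffolds, and relative coverages of 1.14 to 1.25 in MG. Scaffold 2, the longest of the 10 by its listed positions, was at 2469, 2492 and 2531 ppm in MG and 2536, 2459 and 2544 in SP, with a log2 fold change of -0.01 ± 0.02 (SE; edgeR, adjusted p = 0.882). Scaffolds 4 and 12 were higher in MG by 0.15 and 0.19, and scaffolds 7, 3, 84 and 8 did not pass the test, with log2 fold changes between -0.12 and 0.25. Without SP1 scaffolds 7 and 8 were called lower, at -0.152 and -0.145 (edgeR, adjusted p = 0.0317 and 0.0181). The 5 higher scaffolds were still called, scaffold 11 at 0.47. Per mapped read all 10 were higher in MG, by log2 fold changes of 2.47 to 3.11.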

How the data were processed

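WGBS libraries of 3 MG and 3 SP samples were compared, with 3 FG libraries as a reference for scaffolds; groups and replicate numbers were taken from the sample labels. The authors aligned trimmed reads with Bismark at default parameters to their scaffold assembly, discarded duplicates and deposited a list of mCs for each library. The deposited counts are methylated and unmethylated reads per site, without normalization. The deposited fraction is MLmc, the methylated reads over all reads of the site. Each site also carries a p-value of the authors, raw and corrected, whose test is not given in the sources used here. The raw values of sites with 1 methylated read were used only to recover the background rate. They were taken as the binomial probability of at least 1 methylated read at the coverage of the site. The rates so recovered lay within 1% of their median in each library and context. Sites with more methylated reads were not used for this. Cytosines that were not called are not listed, so regions cannot be given a level per covered cytosine.

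Organelle sites were left out. Mapped reads of each library, counted as read pairs, were taken from the study's sequencing table as library sizes only. Values per library were compared by exact permutation of the libraries (two-sided), for which the lowest p is 0.1 for 3 libraries against 3 and 0.2 for 3 against 2. Scaffolds with 30 or more methylated reads in the 6 libraries together were fitted with edgeR 4.0.16 (quasi-likelihood, no covariate, R 4.3.3), with mapped reads (absolute) or nuclear methylated reads (relative) as library sizes, and p-values were adjusted over all scaffolds by Benjamini-Hochberg. The quasi-likelihood test gives no SE. The SE beside a log2 fold change was computed as its absolute value over the square root of the F statistic of the test. Python 3.11.15 with numpy 2.4.6, pandas 2.3.3 and scipy 1.17.1 was used.

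No gene could be assigned without an annotation of the scaffolds, so scaffolds were named instead: the 10 with the largest relative change in each direction among called scaffolds with at least 300 methylated reads and no overlap of the stages, up to 5 called lower in the absolute fit with no overlap, and the 10 with the most methylated reads. Members, lists and tests were chosen with earlier results of these data known. Alternatives were other minima of coverage (10 reads) and of methylated reads (2 or 4) per site, the common coverage window, single contexts, numbers of mCs, other filters, edgeR's TMM, DESeq2 1.42.0, a replicate block and the omission of each library in turn. The exclusion of the 66 scaffolds with highly methylated sites and the fits of single contexts without SP1 were added after seeing the data.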

Additional observations from a re-analysis of the deposited data

How the results depend on the processing

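Over 19 values of libraries and 179 alternatives, 170 kept the direction of the difference between MG and SP. The difference in the share of mCs with 4 or more methylated reads, -0.0524 percentage points with all libraries, became 0.0618 with a coverage of at least 10 reads and 0.0458 without the 66 scaffolds, and ranged from -0.127 to 0.0964 when each library was left out in turn, turning without SP1. That of an MLmc of 0.5 or more became 0.0031 without the 66 scaffolds and ranged from -0.18 to 0.045. With at least 2 methylated reads per site the difference in paired sites turned to -2.37 percentage points for CpG and -3.56 for CHG, through SP1. The share of mCs at 5 to 8 reads ranged from -14.1 to 0.58, turning without MG3, and the ratio of same- to opposite-strand neighbours from -0.0477 to 0.528, turning without SP3; the causes were not tested.

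Of the scaffolds higher in the absolute fit, 3841 were called with at least 300 reads per scaffold, 3527 with at least 2 methylated reads, 4284 for CpG alone and 4199 for CpG without SP1, where fewer scaffolds were tested. Those lower numbered 21 at a coverage of at least 10 reads, 1 by DESeq2 and 1 (CpG) or 0 (CHH) without SP1, and 0 to 43 when each library was left out. In the relative fit, 223 were higher at a coverage of at least 10 reads, 281 for CpG alone and 274 for CpG without SP1, and 231 were lower for CHH alone. With at least 2 methylated reads these counts were 0 higher and 14 lower. Leaving out each library gave 248 to 537 higher and 193 to 590 lower. Of 197 alternatives for the 10 named higher scaffolds, 189 kept the call, 8 lost it and none turned. Only 2 of these 10 kept it in every alternative tested. With at least 2 methylated reads no scaffold was called higher, so each named one tested there lost its call. Of 196 alternatives for the 10 lower, 176 kept the call and 19 lost it, and 2 of these 10 kept it throughout. Scaffold 2160 turned to 1.77 on the log2 scale with at least 2 methylated reads.

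Samples of the stages share replicate numbers. Deviations of same-numbered libraries from their stage means correlated by 0.159, -0.01 and 0.0987 over 3874 scaffolds, and MG2 did not correlate best with its own number, so the numbers were not taken to pair the samples. A replicate block gave 473 higher and 363 lower scaffolds in the relative fit and 6661 and 33 in the absolute fit.

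Depth limits single sites: at a median coverage of 7 to 9 reads the level of a site seen methylated in 1 read is poorly fixed.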

Other observations

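The sites of SP libraries were found more often in a library of MG than in another library of SP. Of the sites of SP2, 3.58% were also listed in MG1, 3.58% in MG2 and 3.89% in MG3, against 1.24% in SP1 and 1.57% in SP3; of those of SP1, 3.45%, 3.51% and 4.02% were listed in MG1 to MG3. The MG lists were longer, with 5043993 to 6255023 sites against 684742 to 1702060 in SP. A longer list holds more of any other list, so these shares do not compare likeness between libraries. The part of list length in them was not tested.

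The minus strand held 50.01%, 50.01% and 49.5% of the mCs in MG1 to MG3 and 49.9%, 49.4% and 49.4% in SP1 to SP3, so that MG3 lay with SP2 and SP3 in this value, and the stages overlapped.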
